A study of Mus musculus with 6 samples.

Results

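The genes described here are 9 members of the MYC/MAX/MLX network that lie outside the PRC1.6 complex, measured in mouse embryonic stem cells in which Pcgf6 was knocked down. They were chosen as a list of gene symbols, under no rule on their values but with earlier results of these data known. All 9 had a probe set of their own (a group of array probes read as 1 value), out of 19938 genes with such a probe set. The members are Myc, Mycn, Mycl (Mycl1 in older annotation), Mxd1, Mxd3, Mxd4, Mxi1, Mnt and Mlx. Each was read by 1 probe set, so the choice of the brightest probe set did not enter.

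Transcripts were measured on 6 GeneChip Mouse Gene 1.0 ST arrays, a one-colour platform, from V6.5 cells, a mouse embryonic stem cell line, carrying a short hairpin RNA switched on by doxycycline (dox). The groups were Pcgf6 hairpins with dox at 1 µg/ml (n = 2, hairpin 1 and hairpin 2), Pcgf6 hairpins without dox (n = 2), the scrambled hairpin with dox (n = 1) and the scrambled hairpin without dox (n = 1). Every line was grown on inactivated mouse embryo fibroblasts in medium with leukaemia inhibitory factor, so RNA of these feeder cells can be part of every sample. The 2 arrays of a Pcgf6 group carry different hairpins, no group holds repeats of the same hairpin, and nothing in the labels shows whether the arrays represent different cultures. The p-values here therefore cover the spread among these arrays, which may be technical.

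Proteins of this network bind DNA as pairs through a basic helix-loop-helix leucine zipper, most often at the E-box. MYC, MYCN and MYCL pair with MAX and activate transcription. MXD1, MXD3, MXD4, MXI1 and MNT pair with MAX too, or some of them with MLX, and recruit the SIN3 corepressor. MLX also pairs with the glucose-responsive factors MondoA (Mlxip) and ChREBP (Mlxipl). MAX is shared with MGA, the scaffold of PRC1.6, the polycomb complex that contains PCGF6 and E2F6. In mouse embryonic stem cells Myc and Mycn are known for driving growth and for overlapping roles.

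The DNA around the start sites was examined for the motifs that MGA with MAX (the E-box, CACGTG) and E2F6 (GGCGGGAA, an E2F site) are known to bind. In the RefSeq promoter table of GRCm38.p6, which holds 250 bases before and 50 after each start, 8 of the 9 members (all except Myc) had 10 windows. On either strand, 3 of these windows held CACGTG, against 7.15% of all 32851 windows, and 1 held GGCGGGAA, against 2.19% of all windows. The stretches with a match are shown 5′ to 3′ on the gene's strand, with the motif in capitals, because MGA, MAX and E2F6 belong to the same complex as PCGF6. A match describes the letters only.
Mxd4, chr5:34187897-34187956, minus strand, E-box starting 219 bases before the start: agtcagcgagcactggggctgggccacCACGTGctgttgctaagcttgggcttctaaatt
Mnt, chr11:74830774-74830833, plus strand, E-box starting 123 bases before the start: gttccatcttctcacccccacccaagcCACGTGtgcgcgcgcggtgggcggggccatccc
Mlx, chr11:101087223-101087282, plus strand, E-box starting 40 bases before the start: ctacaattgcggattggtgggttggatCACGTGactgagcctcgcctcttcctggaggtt
Mxd3, chr13:55329834-55329895, minus strand, E2F site starting 137 bases before the start: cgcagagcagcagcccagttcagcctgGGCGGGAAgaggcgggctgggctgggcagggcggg

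The knockdown served as the check of the labels. Pcgf6 measured 9.39 and 9.27 on the log2 scale in the Pcgf6 hairpin 1 and hairpin 2 cells with dox, against 11.56 and 11.70 without dox. It measured 11.82 in scrambled cells with dox, against 11.80 without dox. The embryonic stem cell markers (12 of 12 measured, among them Pou5f1, Sox2 and Nanog) averaged between 11.83 and 12.10 per array. The 21 feeder markers, all measured, averaged 9.99, 10.33 and 9.66 with dox in the hairpin 1, hairpin 2 and scrambled lines, against 9.98, 9.86 and 9.08 without dox. Genes marking feeder cells were thus detected on every array and were lowest in scrambled cells without dox; stem cells grown without feeders were not analysed here, so expression of these genes by other cells was not separated from feeder RNA. None of the feeder or stem cell markers passed the test in the dox comparisons below. Of 5 markers of 2-cell-like cells, 3 were measured and passed over the Pcgf6 hairpins, averaging 6.27 and 6.19 with dox in the hairpin 1 and hairpin 2 cells, against 5.00 and 5.01 without dox, and 4.86 in scrambled cells with dox, against 5.15 without dox. The part of either cell type in the values below was not tested. A feeder covariate is given with Myc, but it cannot test that part for the reason stated there.

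Knockdown of Pcgf6 was not accompanied by a called change in any of the 9 network genes. Induced against uninduced Pcgf6 hairpins (n = 2 against 2), 0 of 9 passed an adjusted p of 0.05 by limma, against 0.201% of all genes tested. Fitted changes of the members ran from -0.27 to 0.15 on the log2 scale, and their adjusted p from 0.527 to 0.999. The 95% intervals of the 9 changes lay between -0.50 and 0.35, or 0.705-fold and 1.27-fold, so that a 1.5-fold change (0.58) lay outside each of them. At an unadjusted p below 0.05 there was 1 of 9, Mxd3, against 8.75% of all genes. The median change of the members was -0.03 for hairpin 1 (0.00 over all genes), -0.02 for hairpin 2 (-0.02 over all genes) and 0.02 for scrambled (-0.01 over all genes).

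**Figure D1:**
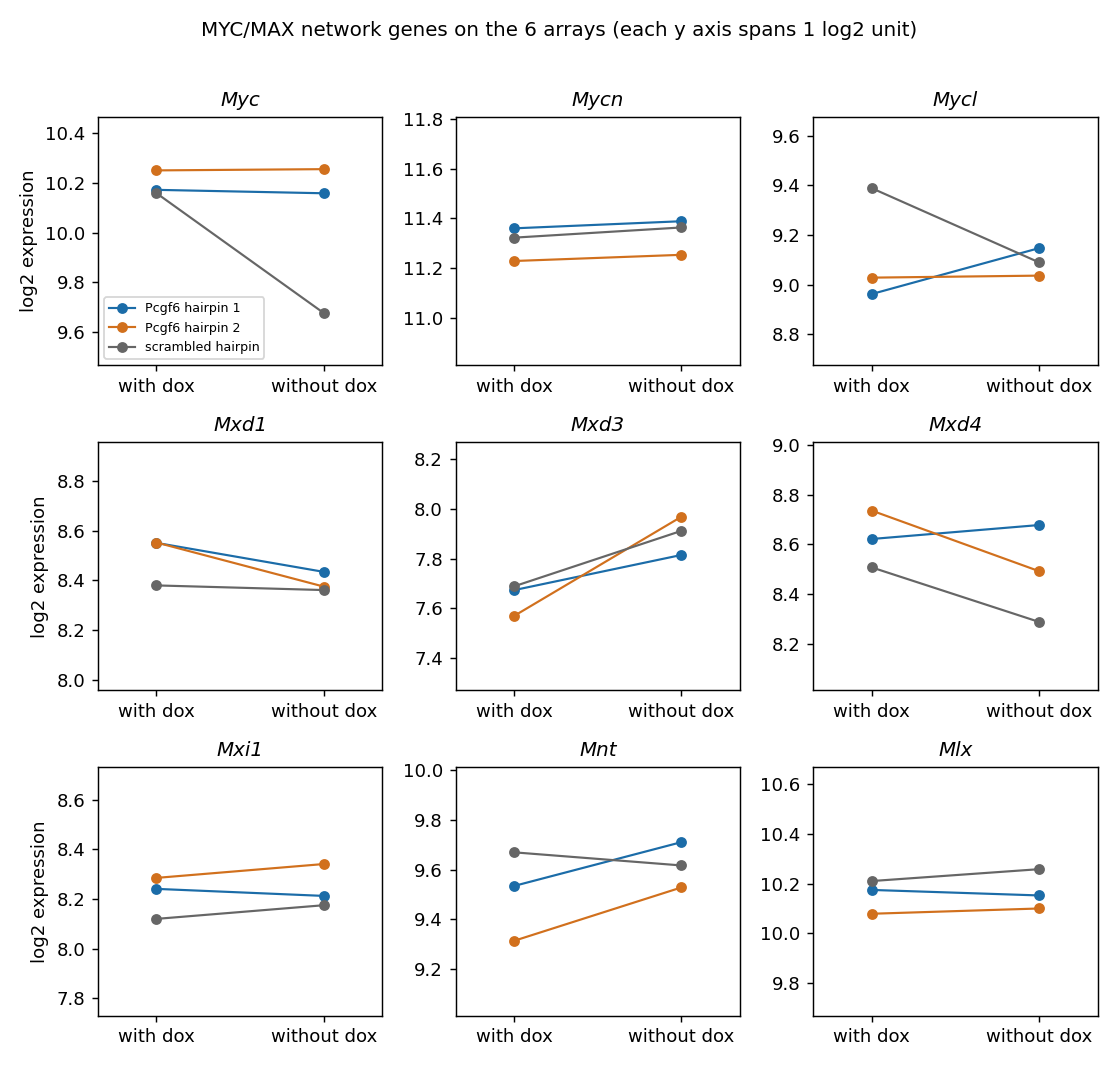
Log2 expression of the 9 network genes (y axes, each spanning 1 log2 unit) with dox (left) and without dox (right) in the Pcgf6 hairpin 1, Pcgf6 hairpin 2 and scrambled lines; each point is 1 array and a line joins the arrays of a cell line. Myc was level in both Pcgf6 hairpin lines and was lowest, at 9.68, in scrambled cells without dox.

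Among the activators, Myc, the founding member (probe set 10424400, chromosome 15), measured 10.17 and 10.25 with dox in the hairpin 1 and hairpin 2 cells, against 10.16 and 10.26 without dox. The values with and without dox overlapped and differed by at most 0.01 within a line. The fitted change of Myc was 0.00 (SE 0.09, 95% interval -0.21 to 0.22, limma adjusted p = 0.994), equal to a fold change between 0.864 and 1.16. In scrambled cells Myc measured 10.16 with dox, against 9.68 without dox. The difference of 0.48 in the scrambled pair was exceeded in size by 2.9% of all genes, while 90.8% and 97.9% of genes had a larger difference than Myc in the hairpin 1 and hairpin 2 pairs.

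Myc was thus alike on 5 arrays and lower on the scrambled array without dox. Without dox, the Pcgf6 hairpin cells were at 10.16 and 10.26, against 9.68 in scrambled cells, a difference of 0.53 or 1.44-fold between the means. This comparison was made because the low value had been seen and has 1 scrambled array, so it restates that value and carries no spread of scrambled cells. In the limma fit Myc did not pass (adjusted p = 0.295), nor did any gene (0%), and 8.06% of genes, Myc among them, reached an unadjusted p below 0.05. The same scrambled array had the lowest mean of the feeder markers (9.08, against 9.66 to 10.33 on the others) and the highest mean of the stem cell markers (12.10). Lowest there too were the means of 6 primitive endoderm markers (7.34, against 7.70 to 8.04 on the others) and 6 mesoderm markers (7.30, against 7.33 to 7.59). The same held for 4 blood markers (6.09, against 6.26 to 6.39), but not for the 2-cell-like markers (5.15). With feeder marker mean as a covariate, an alternative added after the data were seen, the dox change of Myc in the Pcgf6 hairpins minus that in scrambled was -0.44 (SE 0.24, unadjusted p = 0.112, limma adjusted p = 1.00), against -0.48 (SE 0.15, unadjusted p = 0.0193) without the covariate. Over the 3 lines the same covariate gave a dox change of Myc of -0.04 (SE 0.17), against 0.16 (SE 0.11) without it. Because the array with the low Myc also had the lowest feeder mean, these fits cannot tell a feeder part from that single array. In bulk samples, fewer cells of a type and less RNA per cell cannot be told apart.

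**Figure D2:**
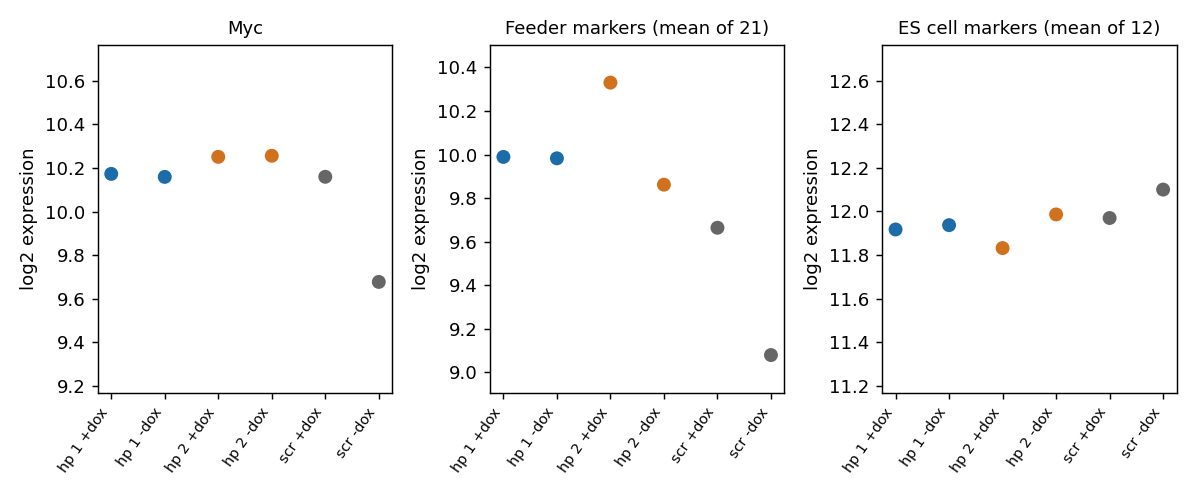
Log2 expression of Myc and mean log2 expression of the feeder fibroblast markers (21 genes) and stem cell markers (12 genes) on each of the 6 arrays, with dox left of without dox in each line (hp, Pcgf6 hairpin; scr, scrambled); each y axis spans 1.6 log2 units. The scrambled array without dox had the lowest Myc (9.68) and feeder mean (9.08) and the highest stem cell mean (12.10).

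Mycn, the relative prominent in embryonic and neural cells (probe set 10399421, chromosome 12), measured 11.36, 11.23 and 11.32 with dox in the hairpin 1, hairpin 2 and scrambled lines, against 11.39, 11.25 and 11.36 without dox. All 6 arrays lay within 0.16, and 86.8% of genes spanned more. Mycn was lower with dox in each line, with differences of -0.03, -0.02 and -0.04, and the hairpin 2 line was the lowest in either state. Its fitted change over the Pcgf6 hairpins was -0.03 (SE 0.10, 95% interval -0.26 to 0.21, limma adjusted p = 0.964).

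Mycl (probe set 10507798, chromosome 4), the third activator, measured 8.96 and 9.03 with dox in the hairpin 1 and hairpin 2 cells, against 9.15 and 9.04 without dox. It measured 9.39 in scrambled cells with dox, the highest of the 6 arrays, against 9.09 without dox. The Pcgf6 hairpin groups did not overlap, but under hairpin 2 the difference was -0.01. The fitted change was -0.10 (SE 0.09, 95% interval -0.31 to 0.12, limma adjusted p = 0.81).

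Among the repressors, Mxd3, a MXD factor linked to S phase (probe set 10409424, chromosome 13), had the most negative fitted change of the 9. It measured 7.67, 7.57 and 7.69 with dox in the hairpin 1, hairpin 2 and scrambled lines, against 7.82, 7.97 and 7.91 without dox. All 3 arrays with dox lay below all 3 without dox, in the scrambled line too, where the difference was -0.22. The change was -0.27 over the Pcgf6 hairpins (SE 0.10, 95% interval -0.50 to -0.04, limma adjusted p = 0.527), with an unadjusted p of 0.0295, and did not pass. Its promoter window holds the E2F site shown above, and the part of that site in this change was not tested.

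Mnt, the most broadly expressed MAX-binding repressor (probe set 10378497, chromosome 11), measured 9.53 and 9.31 with dox in the hairpin 1 and hairpin 2 cells, against 9.71 and 9.53 without dox. It measured 9.67 in scrambled cells with dox, against 9.62 without dox. Within each Pcgf6 hairpin line the array with dox was lower, with differences of -0.18 and -0.21, yet the groups overlapped because the hairpin 1 line was higher than the hairpin 2 line in either state. The fitted change of -0.20 (SE 0.11, 95% interval -0.47 to 0.08) did not pass (limma adjusted p = 0.676), and it lay between -0.31 and -0.09 with any 1 Pcgf6 hairpin array left out.

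Mxd1, the founding MXD factor, which rises when many cell types differentiate (probe set 10545921, chromosome 6), measured 8.55 and 8.55 with dox in the hairpin 1 and hairpin 2 cells, against 8.43 and 8.38 without dox. It measured 8.38 in scrambled cells with dox, against 8.36 without dox. The Pcgf6 hairpin arrays with dox were the highest of the 6, and the fitted change was 0.15 (SE 0.08, 95% interval -0.05 to 0.35, limma adjusted p = 0.673).

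Mxd4 (probe set 10529375, chromosome 5), another MXD repressor, measured 8.62, 8.74 and 8.51 with dox in the hairpin 1, hairpin 2 and scrambled lines, against 8.68, 8.49 and 8.29 without dox. Its direction differed between the Pcgf6 hairpins, at -0.06 and 0.24, and the fitted change was 0.09 (SE 0.10, limma adjusted p = 0.843). Mxi1, also called Mxd2 (probe set 10463930, chromosome 19), ranged from 8.12 to 8.34 over the 6 arrays, with a fitted change of -0.01 (SE 0.09, limma adjusted p = 0.982). Mlx (probe set 10381238, chromosome 11), the alternative dimer partner, ranged from 10.08 to 10.26, with a fitted change of 0.00 (SE 0.09, limma adjusted p = 0.999).

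Of the 9 members, 1 (Mxd1) was higher with dox without overlap between the Pcgf6 hairpin groups, against 17.9% of all genes, and 2 (Mycl and Mxd3) were lower without overlap, against 21.8% of all genes. In no single line did a member differ by 1.5-fold, a size reached by 0.868% of genes for hairpin 1, 2.61% for hairpin 2 and 1.7% for scrambled. Nor did any member span 1.5-fold over all 6 arrays, where 9.47% of genes did; Myc came closest at 0.58. For this reason no genes of similar pattern are named: the arrays gave the members too little variation to match.

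**Figure D3:**
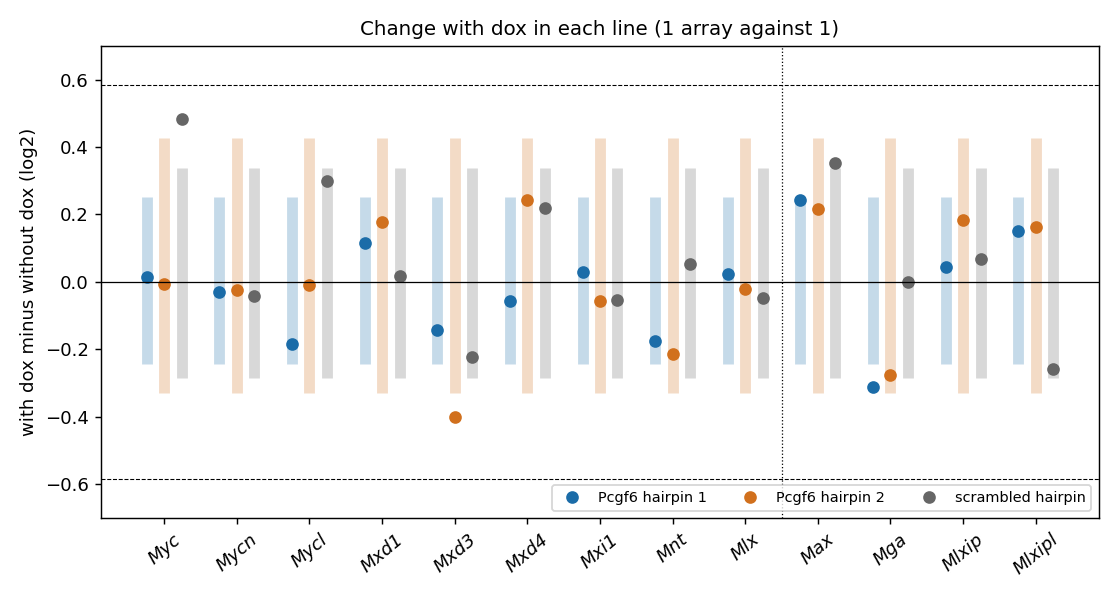
Difference in log2 expression with minus without dox (y axis) for the 9 network genes and, right of the dotted line, 4 partners, 1 point per line (1 array against 1). Pale bars span the central 90% of all genes in that line (5th to 95th percentile) and dashed lines mark 1.5-fold; Myc in the scrambled line (0.48) and Mxd3 under hairpin 2 (-0.40) lie outside the bars of their lines, as do the partners Max in the scrambled line (0.35) and Mga under hairpin 1 (-0.31).

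The dox response of the Pcgf6 hairpins was then set against that of the scrambled hairpin, which asks whether a change goes with Pcgf6 loss and not with dox. By limma 0 of 9 members passed, against 0.0702% of all genes (14 genes, or 23 with the line as a block). At an unadjusted p below 0.05 there were 2 of 9, Myc and Mycl, against 4.55% of all genes. Myc had a difference of -0.48 (SE 0.15, 95% interval -0.85 to -0.11) and Mycl of -0.40 (SE 0.16, 95% interval -0.77 to -0.02), each with an adjusted p of 0.999. For Myc the Pcgf6 hairpin pairs contributed 0.01 and -0.005 and the single scrambled pair 0.48. For Mycl they contributed -0.18 and -0.01, and the scrambled pair 0.30. Mnt measured -0.25 (SE 0.20) and Mxd1 0.13 (SE 0.15), and the other members lay between -0.13 and 0.05. With 1 array per scrambled state, the intervals of the 9 differences reached from -0.85 to 0.48, so a 1.5-fold difference lay inside some of them.

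A last comparison set dox against none over all 3 lines, with the line as a block (n = 3 pairs). Dox also switched on the Pcgf6 hairpin in the hairpin 1 and hairpin 2 lines, so dox and knockdown are mixed here. Pcgf6 itself changed by -1.53 (SE 0.43) in this comparison. By limma 0 of 9 members and 0% of all genes passed. At an unadjusted p below 0.05 there was 1 of 9, Mxd3, against 11.6% of all genes. Mxd3 changed by -0.25 (SE 0.08, 95% interval -0.44 to -0.07, limma adjusted p = 0.355) and was lower with dox in 3 of 3 lines. In all, Mxd3 and Mycn were lower with dox in each line, against 18.5% of all genes, and Mxd1 was higher in each, against 15.2% of all genes. Myc averaged 0.16 (SE 0.11, limma adjusted p = 0.605), and the other members lay between -0.11 and 0.14.

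**Figure D4:**
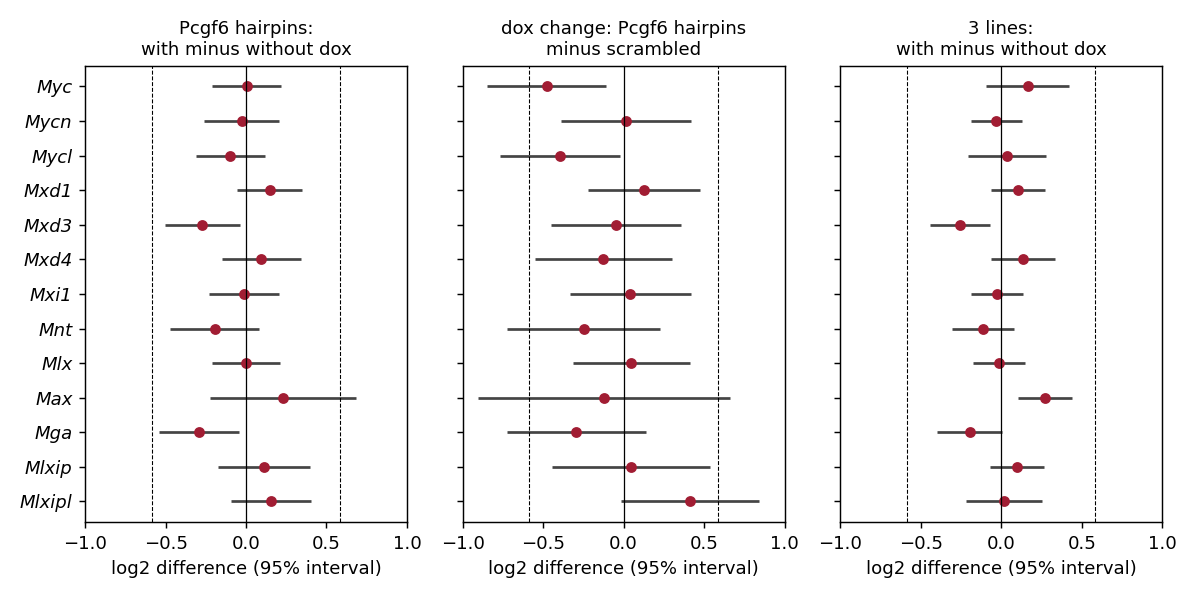
Fitted log2 differences (points) with 95% intervals from limma (bars) for the 9 network genes and the partners Max, Mga, Mlxip and Mlxipl, in the 3 comparisons; dashed lines mark 1.5-fold. For the 9 members the intervals lie inside the dashed lines for the Pcgf6 hairpins (-0.50 to 0.35) and over the 3 lines (-0.44 to 0.42), and are wider in the comparison with scrambled (-0.85 to 0.48).

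The 4 partners of the members also did not pass in any of the 3 comparisons. Max, the common dimer partner, measured 11.42, 10.98 and 11.28 with dox in the hairpin 1, hairpin 2 and scrambled lines, against 11.18, 10.76 and 10.92 without dox. Max was higher with dox in each line, most in the scrambled line (0.35). Over the 3 lines the change was 0.27 (SE 0.07, 95% interval 0.10 to 0.44, limma adjusted p = 0.345). The unadjusted limma p of Max was 0.00659 there, where 11.6% of all genes were below 0.05. Over the Pcgf6 hairpins Max changed by 0.23 (SE 0.19). Its dox change in the Pcgf6 hairpins minus that in scrambled was -0.12 (SE 0.33). Max spanned 0.66 over the 6 arrays, past 1.5-fold, as did 9.47% of all genes. Mga measured 10.64 and 10.50 with dox in the hairpin 1 and hairpin 2 cells, against 10.95 and 10.77 without dox, and 10.91 in scrambled cells in either state. Its change over the Pcgf6 hairpins was -0.29 (SE 0.10, 95% interval -0.54 to -0.04, limma adjusted p = 0.527). Mlxip and Mlxipl measured 0.11 (SE 0.12) and 0.16 (SE 0.10) over the Pcgf6 hairpins.

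Genes that work with the network, or respond to it, were described from lists chosen with earlier results of these data known. For each list the counts below refer to induced against uninduced Pcgf6 hairpins by limma, where 0.201% of all genes passed and 8.75% reached an unadjusted p below 0.05. Of 23 measured cofactors and turnover factors of MYC, 0 passed and 1 reached an unadjusted p below 0.05. That gene was Mycbp2, a ubiquitin ligase gene, at 0.36 (SE 0.11, adjusted p = 0.489). Bin1, a MYC-binding adaptor, measured 0.23 (SE 0.11), the TIP60 complex gene Ep400 0.19 (SE 0.10) and the NURF complex gene Bptf -0.18 (SE 0.09). Of 15 measured genes on the list drawn up for the SIN3 corepressor, 0 passed and 1 reached that level. It was the histone deacetylase gene Hdac2 at 0.29 (SE 0.09, limma adjusted p = 0.49). Hdac2 measured 11.40 and 11.41 with dox in the hairpin 1 and hairpin 2 cells, against 11.03 and 11.18 without dox, and differed by 0.01 in the scrambled pair. Sap18 measured 0.21 (SE 0.10) and the histone-binding gene Rbbp4 -0.17 (SE 0.08). Smc3, a cohesin gene counted on this list but not a SIN3 corepressor subunit, measured -0.14 (SE 0.10).

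Genes that MYC is known to activate, mostly of ribosome production, nucleotide synthesis and glycolysis, formed the next list. MYC activity itself was not measured, so the counts below describe these genes only. Of 45 measured, 0 passed and 3 reached an unadjusted p below 0.05 (Ldha, Tfap4 and the DNA repair gene Apex1, the last named after its value was seen). Their median change was -0.01 for hairpin 1 (0.00 over all genes), -0.05 for hairpin 2 (-0.02 over all genes) and 0.00 for scrambled (-0.01 over all genes). Above 0 were 20 of 45 for hairpin 1 (10041 of all 19938 genes), 12 of 45 for hairpin 2 (9122 of all genes) and 22 of 45 for scrambled (9269 of all genes). Between the Pcgf6 hairpin groups 17 of 45 were lower with dox without overlap, against 21.8% of all genes, and 9 were higher without overlap, against 17.9%. In each of the 3 lines 13 of 45 were lower with dox, against 18.5% of all genes, and 2 were higher, Ccnd2 and the hexokinase gene Hk2, against 15.2%. The cyclin gene Ccnd2 measured 11.60, 11.62 and 11.18 with dox in the hairpin 1, hairpin 2 and scrambled lines, against 11.55, 11.02 and 10.58 without dox. Its differences of 0.05, 0.60 and 0.60 stood beside median differences of -0.01, 0.47 and 0.60 for the feeder markers, and beside 0.01, -0.005 and 0.48 for Myc; their part in the values of Ccnd2 was not tested. Its change over the Pcgf6 hairpins was 0.33 (SE 0.17, adjusted p = 0.65 by limma). The lactate dehydrogenase gene Ldha measured -0.22 (SE 0.08), Tfap4, a MYC target encoding a transcription factor, -0.28 (SE 0.11), and the telomerase gene Tert 0.23 (SE 0.12), and none of them passed.

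Another list was drawn up as genes that MYC represses, and the direction in which MYC acts on each gene was not tested here. Of its 13 measured genes, 0 passed and 3 reached an unadjusted p below 0.05 (Ndrg2, Cdkn1b and Id2). Ndrg2 measured 9.57, 9.54 and 9.85 with dox in the hairpin 1, hairpin 2 and scrambled lines, against 9.98, 10.08 and 10.25 without dox. It was lower with dox in 3 of 3 lines, with a change of -0.47 over the Pcgf6 hairpins (SE 0.09, limma adjusted p = 0.188) and of -0.45 over the 3 lines (SE 0.07, limma adjusted p = 0.274). Cdkn1b, which encodes the cell cycle inhibitor p27, measured -0.36 and -0.35 under hairpin 1 and hairpin 2 and 0.01 in the scrambled line (change over the hairpins -0.35, SE 0.08, limma adjusted p = 0.341). Id2, an inhibitor of helix-loop-helix factors, measured 0.31 (SE 0.09, limma adjusted p = 0.488). The place of Id2 among repressed genes is uncertain, so its rise is not read as a response to MYC. The stress gene Ddit3 had a change of 0.79 (SE 0.35, limma adjusted p = 0.594) that came from hairpin 2 alone, at 1.59 there and -0.01 under hairpin 1. Ddit3 measured 8.94, 9.43 and 8.73 with dox in the hairpin 1, hairpin 2 and scrambled lines, against 8.95, 7.84 and 8.64 without dox. The hairpin 2 line thus held both the highest array, with dox, and the lowest, without dox. The median of this list was -0.04 for hairpin 1, 0.24 for hairpin 2 and 0.01 for scrambled. The feeder markers had medians of -0.01, 0.47 and 0.60 in the same lines, with 9, 21 and 21 of 21 above 0. Pdgfrb, a receptor gene typical of fibroblasts and named here after its values were seen, measured -0.09, 0.60 and 0.71 in these lines, and the part of feeder cells in this list was not tested.

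Of 14 glucose-responsive targets of MLX with MondoA or ChREBP, 0 passed and 4 reached an unadjusted p below 0.05. The arrestin-domain genes went opposite ways, Arrdc4 at 0.26 (SE 0.10) and Arrdc3 at -0.27 (SE 0.09), each in the same direction under both Pcgf6 hairpins. The desaturase gene Scd1 measured -0.27 (SE 0.11) and the ketohexokinase gene Khk -0.23 (SE 0.09), and Khk was also lower with dox in the scrambled line, at -0.25. The limma adjusted p of these 4 genes lay between 0.508 and 0.556. The median of the 14 was -0.03 for hairpin 1, 0.00 for hairpin 2 and -0.10 for scrambled.

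**Figure D5:**
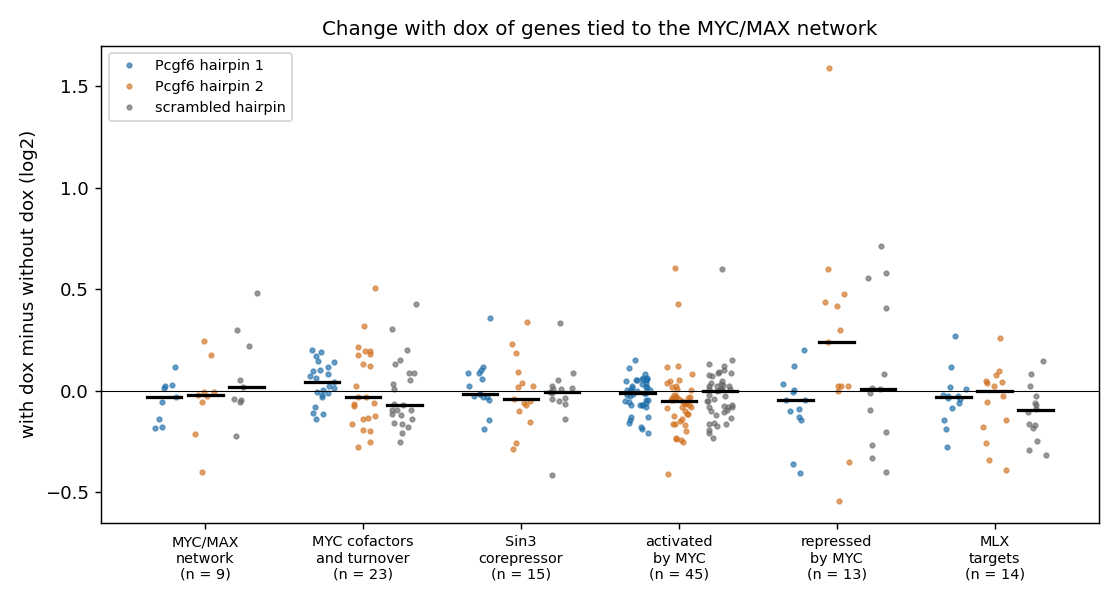
Difference in log2 expression with minus without dox (y axis) of the genes of 6 lists in each line; each point is 1 gene, from 1 array against 1, and black bars are medians. The medians of the MYC-activated genes lie at -0.01, -0.05 and 0.00, and the highest point, 1.59, is Ddit3 under hairpin 2.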

How the data were processed

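The authors deposited log2 expression values per probe set. The submitters' processing notes name RMA and Affymetrix Power Tools, without versions. RMA sets all arrays to 1 distribution, which hides any shift common to most genes. Values ran from 2.28 to 14.27, array medians from 7.02 to 7.08, and correlations between arrays from 0.991 to 0.996. The platform annotation gave 1 symbol to 21789 of 35556 probe sets, several to 1621 and none to 12146; 21698 were named through RefSeq (GRCm38.p6) by Entrez identifier. For 999 genes with several probe sets the brightest was used, and all 19938 genes were tested.

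limma 3.58.1 in R 4.3.3 was fitted to all genes on all 6 arrays with 1 mean per group (2 residual and 4.44 prior degrees of freedom). The comparison over the 3 lines had line and dox as terms. The feeder covariate takes up 1 of the 2 residual degrees of freedom, so fewer calls with it are not a test of a feeder part. Tests were two-sided, with Benjamini-Hochberg adjustment over all genes; SE and 95% intervals are moderated. The fits were tested on simulated data. Single scrambled arrays were taken to vary like the hairpin groups, and the number of arrays limits the precision. Levels of different probe sets were not compared. Same-numbered hairpin arrays come from the same line, which pairs them (correlation of their deviations from group means 0.181). The members and lists were chosen with earlier results of these data known. All members and partners are named; of each list, up to 4 genes with the largest change over the Pcgf6 hairpins. Apex1, Hk2 and Pdgfrb fall outside this rule and were named after their values were seen.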

Additional observations from a re-analysis of the deposited data

How the results depend on the processing

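None of the 9 network genes passed in any of the 3 dox comparisons under any alternative run (quantile normalization, median centring, filters on dim genes, the mean of all probe sets, an intensity trend, the line as a block or not, the Pcgf6 hairpin arrays alone, each Pcgf6 hairpin array or each line left out, and the feeder marker mean as a covariate, the last chosen after seeing the data). The smallest adjusted p was 0.243. Of 324 alternative values for the members, 293 kept the sign of the reported value and 31 did not, all for changes of at most 0.16 as reported. The cause was not tested. Many of the 293 had to keep it. The filters on dim genes, the mean of all probe sets and the intensity trend leave a member's fitted change as it is. So do the line as a block or not and the Pcgf6 hairpin arrays alone. The count of kept signs is therefore no measure of stability. Over the Pcgf6 hairpins, 40 genes passed, against 62 with an intensity trend, 7 after removal of the dimmest 50%, 21 with the feeder covariate and 14 to 26 with 1 array left out. In the comparison with scrambled, 14 genes passed, against 22 after median centring, 9 and 4 without the dimmest 25% and 50%, 0 with the feeder covariate, 23 with the line as a replicate block and 0 to 4 with 1 array left out. The replicate block changed no call of a member. Over the 3 lines, 0 genes passed, and 0 to 54 with a line left out (54 without the scrambled line).

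Changes over the Pcgf6 hairpins that turned sign were those of Myc (-0.0065 by quantile normalization, -0.0157 after centring, -0.0227 with the feeder covariate, -0.0441 to 0.0529 with 1 array left out), Mycn (0.0249 with the covariate, -0.0943 to 0.0408 with 1 array left out), Mxd4 (-0.0175 with the covariate), Mxi1 (-0.0778 to 0.0504 with 1 array left out) and Mlx (-0.0148 by quantile normalization, -0.0196 after centring, -0.0474 to 0.0485 with 1 array left out). Against scrambled they were Mycn (-0.0613 with the covariate, -0.0534 to 0.0818 with 1 array left out), Mxd3 (-0.1242 to 0.0299) and Mxi1 (-0.0228 to 0.1055) with 1 array left out, and Mxd4 (0.0372) and Mlx (-0.0216) with the covariate. Over the 3 lines they were Myc (-0.0369), Mxd4 (-0.0500), Mxi1 (0.0272) and Mlx (0.0245) with the covariate, Mlx also with a line left out (-0.0345 to 0.0005), and Mycl (-0.0083 by quantile normalization, -0.2144 with the covariate, -0.0965 to 0.1454 with a line left out). Uncalled changes that kept their sign but moved by over 1.5 times with 1 array left out were, over the Pcgf6 hairpins, those of Mnt (-0.3061 to -0.0853), Mycl (-0.1519 to -0.0410) and Mxd4 (0.0009 to 0.1869), and, against scrambled, those of Mnt (-0.3589 to -0.1381), Mxd4 (-0.2186 to -0.0326) and Mlx (0.0003 to 0.0963). Over the 3 lines, with a line left out, they were those of Myc (0.0044 to 0.2483), Mxd4 (0.0816 to 0.2317), Mxi1 (-0.0554 to -0.0134), Mnt (-0.1957 to -0.0618) and Mxd1 (0.0678 to 0.1471).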
